A study of Drosophila melanogaster with 12 samples.

Results

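Nonsense-mediated decay removes transcripts whose translation stops too early, together with a set of normal transcripts that carry features the pathway reads. The helicase Upf1 binds the RNA and is joined by Upf2 and Upf3, the kinase Smg1 phosphorylates Upf1, and Smg5 and the endonuclease Smg6 then act on the bound transcript. In flies, *Gadd45* mRNA, which encodes an activator of stress kinase signalling, is a known substrate of this pathway and rises when the pathway is lost. The 6 factors and *Gadd45* were chosen by gene name, for their known roles, with earlier results of these data known. They made up 7 of the 21076 genes in the deposited expression table. *Smg1* is listed there under its other name, *nonC*.

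The study asked what the RNA methyltransferase Mettl16 does in *Drosophila melanogaster*. MeRIP-seq, which sequences RNA fragments captured with an antibody against m6A (IP) beside the uncaptured RNA (input), was run on poly(A) RNA of whole adult males. *Mettl16* 1-9 mutants, which carry a CRISPR-made frameshift deletion in the first exon of *Mettl16*, were compared with *w1118* control flies, with 3 biological replicates per genotype and about 50 males pooled in each preparation. The mutants represent 1 allele, and no other allele or rescue line is in these libraries. Levels below are FPKM (fragments per kilobase of transcript scaled to library size) of the 6 input libraries.

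The input libraries held 5.32 to 6.48 aligned gigabases and between 17763 and 18106 genes above 0 FPKM. Correlations between libraries, over all tested genes on the log2 scale, were 0.991 to 0.994 within a genotype and 0.946 to 0.955 between genotypes. *Mettl16* itself (listed as CG7544) was at 0.971, 0.824 and 1.19 FPKM in *w1118* and at 0.430, 0.285 and 0.232 FPKM in the mutants, a log2 fold change of -0.60 (SE 0.11, limma adjusted p = 0.0031). Of the 14 testis markers tested, 13 were lower in the mutants, and their summed level was 1469 to 1646 FPKM in *w1118* and 916 to 1045 FPKM in the mutants. All 7 accessory gland markers were lower, with sums of 4476 to 4904 and 2732 to 3399 FPKM. The 8 yolk and female germline markers summed to 3.31 to 8.14 FPKM in *w1118* and 5.79 to 9.93 FPKM in the mutants. Only 3 of these 8 reached the level needed for the test, and *Yp3* was called higher (adjusted p = 0.0088), while *osk*, *Vm26Aa* and *dec-1*, untested at no more than 0.820 FPKM in any library, were lower in every mutant library than in every control. In whole flies, fewer cells of a type and less RNA per cell cannot be told apart, and the part of these tissue differences in the results below was not tested.

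The mRNA levels of 5 of the 6 decay factors did not pass the test for a difference between genotypes, *Upf3* passed it narrowly at 0.835 times the control level, and the substrate *Gadd45* was 1.55-fold higher in the mutants. Of the 13866 tested genes, 49.6% were called, 22.9% as higher and 26.7% as lower, so 2 calls among 7 genes was not a high count. The median log2 fold change was -0.05 over the 7 genes and 0.01 over all tested genes. The genotypes did not overlap for 3 of the 7 genes, beside 60.3% of all tested genes.

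**Figure D1:**
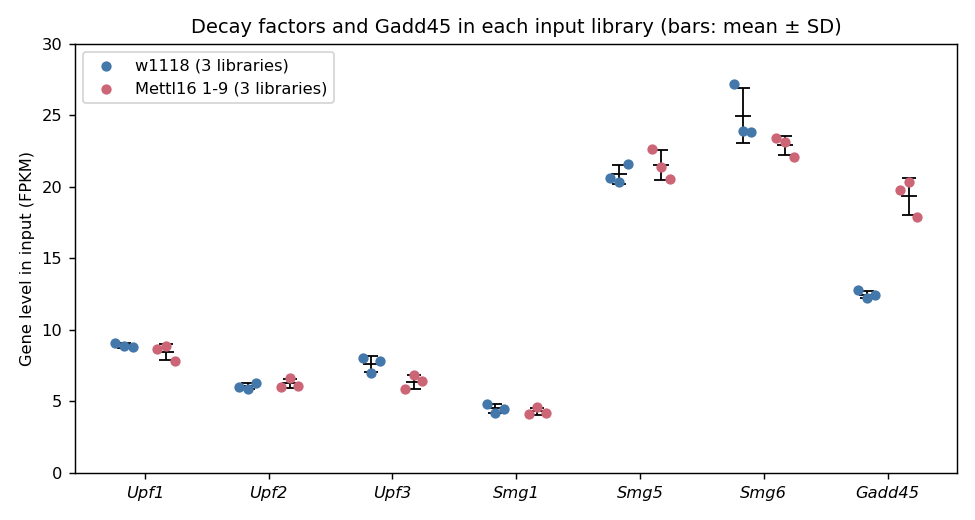
FPKM of the 6 decay factors and *Gadd45* in each input library, *w1118* against *Mettl16* 1-9, with 1 point per library and the mean and SD (n = 3) of each genotype. *Gadd45* is the gene whose mutant libraries (17.9 to 20.4 FPKM) all lie well above the controls (12.2 to 12.8 FPKM).

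*Upf1* (FBgn0030354, X:11899996-11905371, minus strand) encodes the RNA helicase at the centre of the pathway. Its level was 9.10, 8.85 and 8.79 FPKM in *w1118* and 8.69, 8.90 and 7.85 FPKM in the mutants. The genotypes overlapped, and the log2 fold change was -0.07 (SE 0.06, 95% interval -0.21 to 0.08, limma adjusted p = 0.43). *Upf2* (FBgn0029992, X:8070244-8075466, minus strand), which bridges Upf1 and Upf3, was at 6.01, 5.90 and 6.30 FPKM in *w1118* and at 6.03, 6.65 and 6.11 FPKM in the mutants. These values also overlapped, with a log2 fold change of 0.04 (SE 0.06, interval -0.11 to 0.19, adjusted p = 0.646).

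*Upf3* (FBgn0034923, 2R:23893066-23894987, minus strand) encodes the third Upf protein, which binds Upf2 and in mammals links the pathway to the exon junction complex. It was at 8.05, 6.97 and 7.82 FPKM in *w1118* and at 5.86, 6.82 and 6.40 FPKM in the mutants. All mutant values lay below all control values, but the lowest control and the highest mutant were only 6.97 and 6.82 FPKM. The log2 fold change was -0.23 (SE 0.08, interval -0.41 to -0.05, adjusted p = 0.0419), and 51.3% of tested genes changed by more. The call was lost without *w1118* replicate 1 (limma adjusted p = 0.106), *w1118* replicate 3 (0.116), *Mettl16* replicate 1 (0.129) or *Mettl16* replicate 3 (0.0838). The call was also lost with no expression filter (0.0719) or with replicate number added to the fit (0.0953). Over all alternatives its log2 fold change stayed between -0.28 and -0.18. *Upf3* shares 112 bases with *DNAlig1* on the opposite strand, which was at 1.09 to 1.14 FPKM in *w1118* and 1.60 to 1.85 FPKM in the mutants. The libraries were stranded, but the sources used here do not say whether strand was used in computing FPKM.

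*Smg1* (FBgn0263968, X:6824496-6838122, plus strand), the kinase of Upf1, had the lowest level of the factors, at 4.83, 4.20 and 4.50 FPKM in *w1118* and 4.13, 4.61 and 4.22 FPKM in the mutants. The genotypes overlapped (log2 fold change -0.05, SE 0.07, interval -0.22 to 0.12, adjusted p = 0.598). *mAChR-C* lies within *Smg1* on the opposite strand and was at most 0.063 FPKM in any library.

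*Smg5* (FBgn0019890, 2L:13898828-13904661, minus strand) binds phosphorylated Upf1 and is needed for viability in flies. Its level was 20.7, 20.4 and 21.6 FPKM in *w1118* and 22.7, 21.4 and 20.6 FPKM in the mutants. The genotypes overlapped, with a log2 fold change of 0.04 (SE 0.06, interval -0.09 to 0.18, adjusted p = 0.568). *Smg6* (FBgn0039260, 3R:25029429-25033465, minus strand), the endonuclease that cuts the target near the stop codon, was at 27.2, 23.9 and 23.8 FPKM in *w1118* and 23.4, 23.2 and 22.1 FPKM in the mutants. The mutants lay below the controls without overlap, but the difference did not pass the test (log2 fold change -0.12, SE 0.07, interval -0.27 to 0.04, adjusted p = 0.176). The highest *Smg6* value was that of *w1118* replicate 1.

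The intervals bound what these libraries could miss. For *Upf1*, *Upf2*, *Smg1* and *Smg5* they kept the difference within 0.22 on the log2(FPKM + 1) scale in either direction, and for *Smg6* the lower bound was -0.27. On this scale the change of low genes is understated. *Upf1*, *Upf2* and *Smg1* lie on the X chromosome, where 42.2% of the tested genes were called.

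*Gadd45* (FBgn0033153, 2R:7249161-7250655, plus strand) is a gene of 1 exon and 1495 bases, so it has a single annotated isoform. It was at 12.8, 12.2 and 12.4 FPKM in *w1118* and at 19.8, 20.4 and 17.9 FPKM in the mutants. Every mutant library exceeded every control library, and the means were 12.5 ± 0.27 and 19.3 ± 1.3 FPKM (SD, n = 3 each). The log2 fold change was 0.59 (SE 0.06, interval 0.44 to 0.74, limma adjusted p = 0.00021), and 18.3% of tested genes changed by more. Under the 10 alternatives that kept the adjusted p threshold, the log2 fold change stayed between 0.56 and 0.64 and the call was kept each time (adjusted p = 0.000161 to 0.00182). A change of this size did not meet the study's own minimum of 1 on the log2 scale.

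**Figure D2:**
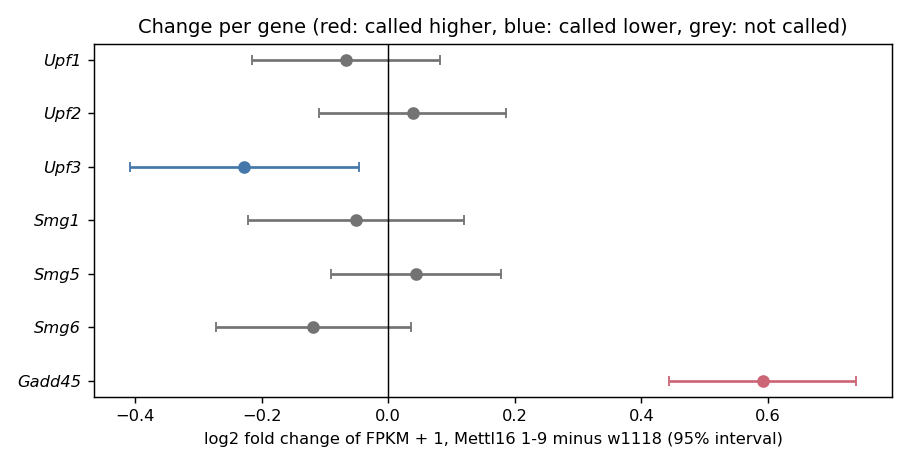
Log2 fold change, mutant minus *w1118*, on the log2(FPKM + 1) scale for each of the 7 genes, with its 95% interval from limma over 3 libraries per genotype. The interval of *Gadd45* (0.44 to 0.74) lies above 0, that of *Upf3* (-0.41 to -0.05) lies just below 0, and the other 5 include 0.

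The plot of fold changes shows *Gadd45* apart from the factors that act on it. Divided by the mean FPKM of the 6 factors in the same library, *Gadd45* stood at 1.01, 1.05 and 1.02 in *w1118* and at 1.68, 1.71 and 1.59 in the mutants. The divisor, weighted to *Smg5* and *Smg6*, was 11.7 to 12.6 FPKM in *w1118* and 11.2 to 11.9 FPKM in the mutants. The ratio thus largely restates the *Gadd45* values and is not separate evidence. Around *Gadd45*, 19 other genes within 100 kb were tested, of which 5 passed as higher and 8 as lower (median 0.03 on the log2 scale). This window was chosen after the values of *Gadd45* were seen. Of the tested genes of chromosome arm 2R, where both *Gadd45* and *Mettl16* lie, 52.3% were called, 23.3% as higher.

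FPKM is scaled to transcript length, so the 7 genes can also be placed in order of level. In *w1118* the order was *Smg6* (25.0 ± 1.9), *Smg5* (20.9 ± 0.63), *Gadd45* (12.5 ± 0.27), *Upf1* (8.91 ± 0.16), *Upf3* (7.61 ± 0.57), *Upf2* (6.07 ± 0.21) and *Smg1* (4.51 ± 0.32 FPKM, SD, n = 3), and no neighbours in this order overlapped. In the mutants the order of the means was kept, but *Smg6* (22.9 ± 0.69) overlapped *Smg5* (21.5 ± 1.0), and *Upf3* (6.36 ± 0.48) overlapped *Upf2* (6.26 ± 0.33 FPKM). *Gadd45*, at 19.3 ± 1.3 FPKM, came close to *Smg5* without overlap, with a highest value of 20.4 FPKM beside a lowest of 20.6 FPKM.

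The 7 genes have 12 annotated isoforms in the table. Isoform levels passed the test for 2 of these 12, beside 25.0% of the 23974 isoforms tested: the single isoform of *Gadd45* was higher and a short *Upf1* isoform was lower. *Upf1* has a long isoform, FBtr0073596 (5187 bases), and a shorter isoform, FBtr0342744 (4709 bases), whose 3' end lies 449 bases short of that of the long isoform. Both have 4 exons and share the 5' end at X:11905371. Their lengths differ by more than those 449 bases, so the isoforms also differ inside the transcript. Which of the 2 differences goes with the change below was not tested. The short isoform was at 1.59, 1.29 and 1.07 FPKM in *w1118* and at 0.183, 0.0787 and 0.183 FPKM in the mutants, with no overlap. Its mean coverage was 6.93 to 9.71 reads per base in *w1118* and 0.495 to 1.15 in the mutants. The log2 fold change was -1.01 (SE 0.14, interval -1.36 to -0.65, limma adjusted p = 0.0050), and the call was kept in all 9 alternatives, with adjusted p between 0.0046 and 0.0335. With a pseudocount of 0.1 in place of 1 the log2 fold change was -2.53, since the level is low. All mutant values lay below the mean of 0.5 FPKM needed for the test, which the isoform reached through the controls.

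The long *Upf1* isoform was at 7.66, 7.68 and 7.82 FPKM in *w1118* and at 8.53, 8.83 and 7.69 FPKM in the mutants, which overlapped and did not pass the test (log2 fold change 0.10, adjusted p = 0.445). As a share of the gene, the short isoform made up 17.1, 14.4 and 12.0% of *Upf1* in *w1118* and 2.10, 0.883 and 2.33% in the mutants. The mean share was thus 14.5 ± 2.6% against 1.77 ± 0.78% (SD, n = 3), a change of -12.7 percentage points that passed the share test (limma adjusted p = 0.0202). Among all isoforms tested, 4.04% of 18896 isoforms passed that test, and 25.4% had shares that did not overlap. The 2 calls among the 9 member isoforms tested are both *Upf1* and mirror each other, so they are 1 change. Without any 1 of the 6 libraries in turn the share missed the threshold (adjusted p = 0.0572 to 0.0706), while its change stayed between -14.0 and -11.4 points. StringTie divides reads between isoforms that share most of their sequence, so a share is an estimate.

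**Figure D3:**
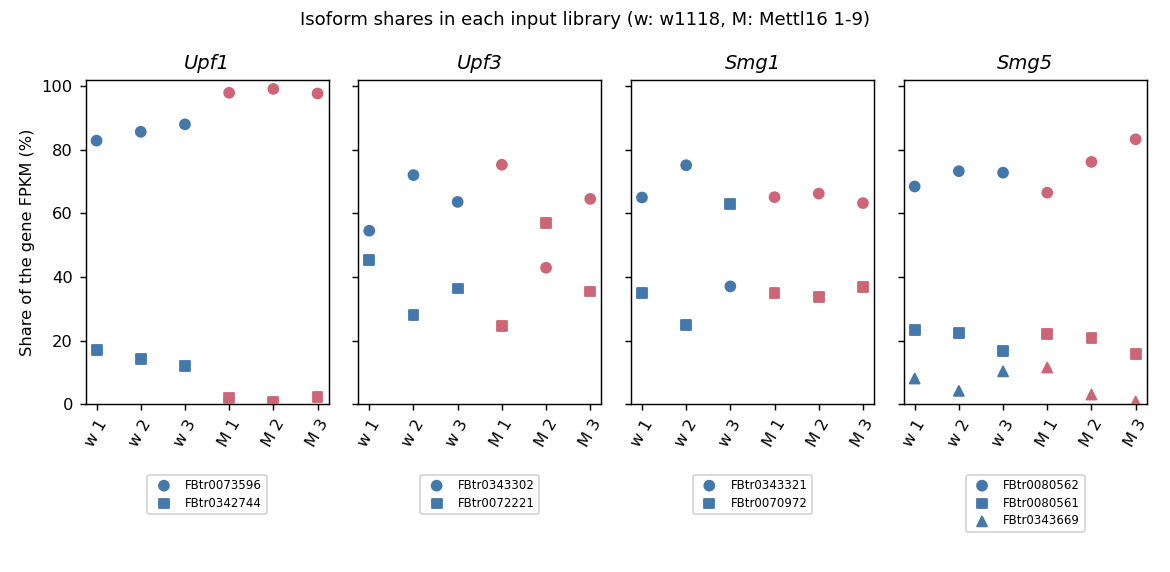
Share of the gene's FPKM (%) taken by each annotated isoform of *Upf1*, *Upf3*, *Smg1* and *Smg5* in each of the 3 *w1118* (blue) and 3 *Mettl16* 1-9 (red) input libraries, 1 marker shape per isoform. The short *Upf1* isoform drops from 12.0 to 17.1% in the controls to 0.883 to 2.33% in the mutants, whereas the isoforms of the other 3 genes overlap between genotypes.

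None of the isoforms of *Upf3*, *Smg1* and *Smg5* passed the share test in limma. *Upf3* isoform FBtr0343302 made up 54.5, 72.0 and 63.6% in *w1118* and 75.3, 42.9 and 64.5% in the mutants (adjusted p = 0.929), a spread within each genotype that was wider than the distance between their means. *Smg1* isoform FBtr0343321, whose 3' end reaches 582 bases beyond that of FBtr0070972, made up 65.0, 75.1 and 37.0% in *w1118* and 65.1, 66.2 and 63.2% in the mutants (adjusted p = 0.822). The lowest of these values was that of *w1118* replicate 3, which stood apart from its 2 fellow libraries. *Smg5* isoform FBtr0080562, the longest at the 3' end, made up 68.4, 73.3 and 72.8% in *w1118* and 66.5, 76.2 and 83.3% in the mutants (adjusted p = 0.716). The 2 other *Smg5* isoforms end 782 bases (FBtr0080561) and 541 bases (FBtr0343669) short of it.

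All 7 genes carried at least 1 m6A peak in the *Mettl16* mutants, with 12 of the 21991 peaks of the list. In all, 12368 genes had a peak, beside 13866 genes that reached a mean of 0.5 FPKM. Having a peak was thus not particular to these 7 genes. Peaks were called by exomePeak over the 3 mutant replicates together, so a peak has no replicate error, and the *w1118* peak list was not analysed here. Of the 12 peaks, 9 (75.0%) lay in 3' UTRs, beside 60.8% of all peaks, 2 lay in 5' UTRs and 1 in a coding exon. Their median log2 enrichment of IP over input was 2.50, beside 2.32 for all peaks (quartiles 1.54 and 3.16), and 7 of the 12 were above the median of all peaks.

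The most enriched peak lay in the 3' UTR of *Upf1* (X:11899996-11900386), with a log2 enrichment of 4.04, higher than 92.6% of all peaks. It lies wholly beyond the 3' end of the short *Upf1* isoform, so that isoform cannot carry it. A second *Upf1* peak (X:11900835-11901135, log2 enrichment 1.90) lies in both isoforms. The *Smg1* peak (X:6837673-6838122, 3.96, higher than 91.2% of all peaks) likewise lies beyond the end of the shorter *Smg1* isoform. The *Smg5* 3' UTR peak (2L:13898828-13899577, 3.31) is contained whole by the longest isoform only. Of the 5 3' UTR peaks in genes with several isoforms, these 3 were therefore contained by just 1 isoform.

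*Gadd45* had a peak at each end of its transcript, in the 5' UTR (2R:7249161-7249490, log2 enrichment 3.18) and in the 3' UTR (2R:7250237-7250655, 3.45, higher than 81.7% of all peaks). *Smg5* also had a 5' UTR peak (2L:13904151-13904361, 2.58), and it and *Gadd45* were the only members with peaks there. *Upf2* had 2 peaks in its 3' UTR, at X:8070244-8070393 (2.41) and X:8070662-8070841 (0.82). The *Smg6* peak (3R:25029459-25029518) was the weakest, at 0.81, although *Smg6* had the highest mRNA level of the 7 genes. *Upf3* had a 3' UTR peak (2R:23893096-23893392, 1.90) and a coding peak (2R:23893744-23893952, 1.11). The coding peak of *Upf3* is also the only member position in the table of peaks compared between genotypes, where it spans 2R:23893744-23893982, 1 of 3088 rows. A row there is not a call of a difference, since the paper called far fewer peaks as changed. The direction and p-value of this row were not read.

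**Figure D4:**
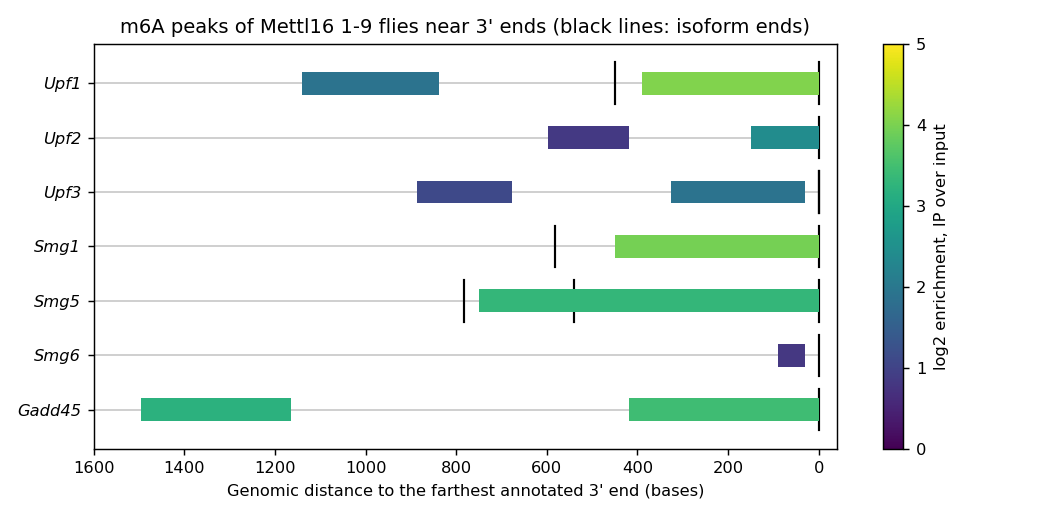
Position of the m6A peaks near the 3' ends of the 7 genes in the mutants, coloured by log2 enrichment of IP over input. Positions are distances in bases from each gene's 3' end. Of the 12 peaks, the 5' UTR peak of *Smg5* lies farther away and is not drawn. The 2 strongest peaks, in *Upf1* (4.04) and *Smg1* (3.96), sit at the 3' end of the gene.

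Other steps of mRNA decay and the machinery around it were described through 5 lists, of which 48 genes were tested. Of these, 12 were higher and 7 lower in the mutants (39.6% called, beside 49.6% of all tested genes), and deadenylation held 5 of the 7 decreases. A list of the kinase route downstream of Gadd45 and a list of other decay substrates are described after them.

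Among 8 genes of the exon junction complex, which in mammals marks transcripts for this pathway, 3 were higher and none lower (median log2 fold change 0.09). Beside them, 22.9% of all tested genes were higher and 26.7% lower. *btz*, a core subunit, rose from 5.61 to 7.08 FPKM (log2 fold change 0.29, adjusted p = 0.0038). *Pym*, which takes the complex apart, rose from 4.23 to 5.39 FPKM (adjusted p = 0.0285), and *tsu*, which encodes the Y14 subunit, from 17.5 to 20.1 FPKM (adjusted p = 0.0491). The *Pym* call was lost without *w1118* replicate 1 or 2 or *Mettl16* replicate 2 or 3 (adjusted p = 0.0602 to 0.099), and that of *tsu* without any single library but *w1118* replicate 1 (0.0793 to 0.149).

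Of 6 genes of translation termination and stalled ribosome rescue, 3 were higher and none lower (median 0.18). Among all tested genes, 22.9% were higher and 26.7% lower. *pix*, the fly ABCE1, which splits ribosomes after termination, rose from 79.7 to 103 FPKM (adjusted p = 0.00056), and *pAbp*, the poly(A) binding protein, from 249 to 316 FPKM (adjusted p = 0.0013). *pelo*, which rescues stalled ribosomes, rose from 12.9 to 15.3 FPKM (adjusted p = 0.032), and its call was lost without any single library but *w1118* replicate 1 (0.0653 to 0.103). Of 10 genes of decapping and 5'-to-3' decay, 3 were higher and none lower (median 0.05), beside the same shares of all tested genes. The 3 were the decapping scaffold *Ge-1* (5.78 to 7.32 FPKM, adjusted p = 0.0061), the decapping enzyme *DCP2* (18.1 to 20.7 FPKM, 0.035) and the nuclear exonuclease *Rat1* (3.65 to 4.38 FPKM, 0.0459). *DCP2* lost its call without any single library but *w1118* replicate 1 (adjusted p = 0.065 to 0.117), with a log2 fold change of 0.15 to 0.24 throughout. *Rat1* lost it without any but *w1118* replicate 3 (0.0859 to 0.133), with 0.17 to 0.27.

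Of 13 genes of the exosome and its SKI cofactors, which degrade RNA from the 3' end, 1 was higher and 2 lower (median 0.05). The shares over all tested genes were 22.9% higher and 26.7% lower. *Rrp6*, the nuclear exonuclease subunit, fell from 38.4 to 25.8 FPKM (log2 fold change -0.55, adjusted p = 0.00078), and *Mtr3*, a ring subunit, from 5.00 to 3.61 FPKM (adjusted p = 0.0020). The nuclear helicase *Mtr4* rose from 4.70 to 5.61 FPKM (adjusted p = 0.0351), a call lost without *w1118* replicate 2 or 3 or *Mettl16* replicate 1 or 3 (0.0768 to 0.113).

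Deadenylation, which shortens poly(A) tails, had 5 of 11 genes lower and 2 higher (median -0.18), beside 26.7% lower and 22.9% higher among all tested genes. The CCR4 deadenylase gene *twin* fell from 58.0 to 37.8 FPKM (log2 fold change -0.60, adjusted p = 0.00017), its partner *Pop2* from 34.8 to 25.3 FPKM (-0.45, adjusted p = 0.00027) and *Tob*, which recruits the complex, from 18.5 to 13.1 FPKM (-0.46, adjusted p = 0.0017). *PAN3* of the other deadenylase complex rose from 16.7 to 19.8 FPKM (0.23, adjusted p = 0.0086). These decreases stood beside the decrease of testis and accessory gland markers given above, whose part in them was not tested.

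**Figure D5:**
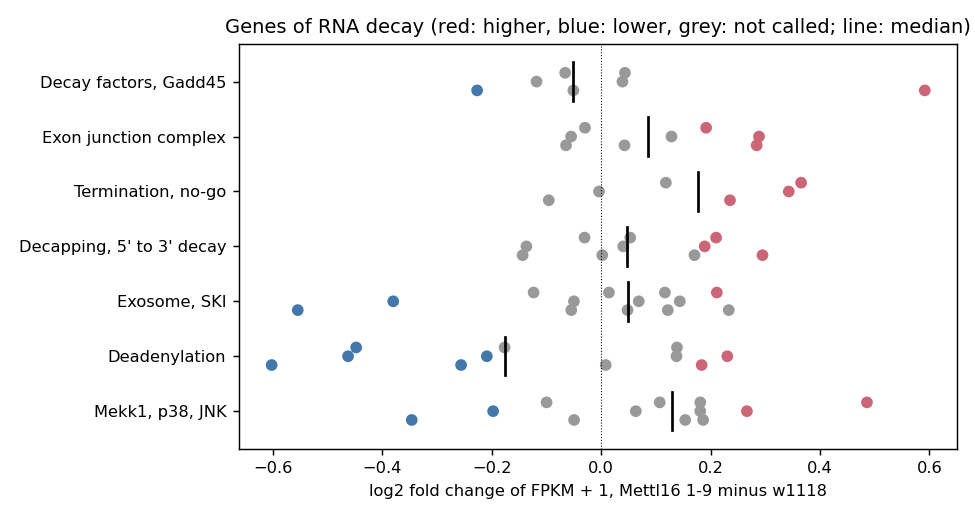
Log2 fold change, mutant minus *w1118*, on the log2(FPKM + 1) scale, 1 point per tested gene, with called genes marked. The groups are the 6 decay factors with *Gadd45* and the lists of decay and kinase genes. The list of other decay substrates is not drawn. Deadenylation is the list with the lowest median (-0.18), and *Gadd45*, at 0.59, lies above the other genes of its group.

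Gadd45 acts through the kinase Mekk1 on the JNK and p38 pathways, so 12 genes of this route were described. Of these, 2 were higher and 2 lower (median 0.13), beside 22.9% higher and 26.7% lower among all tested genes. *kay*, the fly Fos, rose from 21.7 to 30.7 FPKM (log2 fold change 0.49, adjusted p = 0.00076), and *Mekk1* from 6.08 to 7.54 FPKM (0.27, adjusted p = 0.0199). The stress kinase *p38c* fell from 4.08 to 3.00 FPKM (-0.35, adjusted p = 0.0206) and *Jra*, the fly Jun, from 26.0 to 22.6 FPKM (-0.20, adjusted p = 0.0219). *puc*, the phosphatase induced by JNK signalling, was at 9.83 FPKM in *w1118* and 10.7 FPKM in the mutants and did not pass the test (adjusted p = 0.178). *Mekk1* and *p38c* each lost the call without *w1118* replicate 2 or 3 or *Mettl16* replicate 1 or 2 (adjusted p = 0.0536 to 0.0701), and *Jra* without *w1118* replicate 3 or any *Mettl16* replicate (0.055 to 0.0795).

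The 2 other fly transcripts listed as decay substrates did not pass the test. *Oda*, which encodes ornithine decarboxylase antizyme, was at 297 FPKM in *w1118* and 294 FPKM in the mutants (limma adjusted p = 0.858). *tra*, the sex determination gene with a transcript that stops early, was at 6.95 and 6.98 FPKM (limma adjusted p = 0.931). The gene-level value of *tra* sums its isoforms.

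Over the 6 input libraries, the 3 genes whose pattern was most like that of *Gadd45*, among 8713 genes of at least 5 FPKM, were *CG44475*, *btz* and *CG17121*, each with a Pearson r of 0.998. *CG44475* was listed at 0 in each *w1118* library and at 13.9, 17.5 and 6.71 FPKM in the mutants. It thus reached the mean of 5 FPKM through the mutants alone, and its r reflects that step between genotypes. The genes most like *Smg6*, the factor of highest level, were *Vps13B* (r = 0.987), *CG16848* (0.985) and *Sirup* (0.984), each highest in *w1118* replicate 1. These correlations describe 6 libraries that fall into 2 genotypes.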

How the data were processed

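Poly(A) RNA of adult males was profiled by MeRIP-seq with stranded libraries, with 3 IP and 3 input libraries per genotype. The authors used fastp for trimming, FastQC and RseQC for quality checks and HISAT2 for alignment, and obtained FPKM per gene and isoform from the input libraries by StringTie. The deposited isoform table also gives the mean coverage per base of each isoform. Peaks are those the authors called with exomePeak, with a deposited log2 enrichment, p-value and FDR for the 3 replicates together. Tool versions are not given in the sources used here. The tables of the authors' own comparisons of genes (edgeR) and peaks hold fold changes and p-values that were not used. Of the second, only positions were read. A further 9 columns of values in the gene table and 18 columns of the isoform table were left out.

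A gene entered the test if its mean reached 0.5 FPKM (13866 of 21076 genes). Values of log2(FPKM + 1) were fitted in limma 3.58.1 (R 4.3.3) by the trended method, two-sided, with Benjamini-Hochberg adjustment over all tested genes and a threshold of 0.05. Fold changes are on that scale, and folds given as such are ratios of mean FPKM. Isoform levels were tested likewise. Isoform shares were transformed by the arcsine of their square root for limma. Genes had to have 2 or more isoforms and reach a mean of 1 FPKM, mean shares had to lie between 0.01 and 0.99, and a call needed a change over 0.05. Dividing coverage by FPKM gave the depth of each library. Peaks were joined to genes and isoforms by identifier and position with Python 3.11.15, pandas 2.3.3 and NumPy 2.4.6, with figures from matplotlib 3.10.9. Coordinates are those of the deposited tables, counted from 1. The fits were tested on simulated data.

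The members and the 11 lists (99 entries, all matched) were chosen with earlier results of these data known. An entry that had been matched to a gene outside deadenylation was dropped from that list. The text names all members with their isoforms and peaks, *Mettl16*, in each list up to 4 called genes, taken by smallest adjusted p (with none called, the 2 of highest FPKM), and the 3 genes most like *Gadd45* and *Smg6*. *puc*, *DNAlig1* and *mAChR-C* were added after their values were seen. Alternatives were another pseudocount (0.1), no filter, median-of-ratios scaling, a replicate block, the thresholds of the study (p under 0.05 without adjustment, with a log2 change of 1 or more in size), and leaving out each library.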

Additional observations from a re-analysis of the deposited data

How the results depend on the processing

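Of the 7 genes, 2 were called in the main test (49.6% of all tested genes), 1 with no filter on low FPKM (34.8%), 1 with the replicate block (43.9%) and 1 to 2 without single libraries (42.1 to 48.2%). In each case with 1 call it was *Gadd45*, and the adjusted p of *Upf3* under the block was 0.0953. At the study's thresholds (p under 0.05 in limma without adjustment, log2 change of 1 or more in size) 0 were called, beside 5.86% of all tested genes, while 2 had an unadjusted p under 0.05. The exon junction complex had 1 call with no filter, and decapping had 1 with the replicate block (3 in the main test for each). Among named list genes, *Pym*, *tsu*, *pelo*, *Rat1*, *Mtr4* and *p38c* lost the call with no filter (adjusted p = 0.0508 to 0.0688), and *tsu*, *pelo*, *DCP2*, *Rat1*, *Mtr4* and *Jra* with the block (0.0522 to 0.0913). Libraries with the same replicate number did not deviate together (correlations -0.036, -0.061 and -0.027). Whether the numbers pair the samples is not stated in the sources used here. Under the block the calls of isoform shares went from 2 to 0 among the member isoforms (adjusted p = 0.142 for *Upf1*; at an unadjusted p under 0.05 in the main test there were 2) and from 763 to 94 over all isoforms. Without single libraries, the member isoforms had 0 share calls and 2 level calls, and the whole table had 329 to 456 share calls. The ranges of called genes without single libraries were 13 to 25 over all 7 lists (23 in the main test), 1 to 2 for the exon junction complex, 2 to 3 for termination, 1 to 2 for decapping, 2 to 4 for the exosome, 5 to 8 for deadenylation and 1 to 6 for the kinase route. Over all tested genes there were 6874 calls in the main test, 5838 to 6679 without single libraries and 7062 with median-of-ratios scaling. The cause of these changes was not tested.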
